A study of Homo sapiens with 7 samples.

Results

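The genes described here are the cytokines, chemokines and tumour necrosis factor (TNF) family members of a melanoma line, taken by their symbols. A gene was a member if its symbol was CCL or CXCL with a number, IL with a number and an optional A or B, IL with a number and R for an interleukin receptor, or TNFSF or TNFRSF with a number and its suffix letter. Of 21305 genes in the table, 39 were members, namely 15 ligands and 24 receptors. A further 98 protein-coding symbols of the GENCODE release 44 annotation fit the same pattern, 69 ligands and 29 receptors, and were not analysed here. The rule used names alone and no measured value.

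The cells were 501Mel, an established human melanoma line of melanocytic type, in which each culture carried a lentiviral short hairpin RNA that doxycycline switches on. A short hairpin RNA is processed in the cell to a small guide that lowers a matching transcript. RNA-seq libraries fell into 3 groups, with a hairpin against bacterial lacZ as the control (shlacZ, n = 3) and with the hairpins sh4 (n = 2) and sh8 (n = 2) against the long non-coding RNA GRASLND, all of them doxycycline-induced. According to the methods of the study, the lines were puromycin-selected pools of transduced cells from an inducible lentiviral vector, the labels name no added cytokine or interferon, and they do not say whether replicates were separate cultures, so p-values measure the spread between these libraries, which may be technical.

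Cytokines and chemokines are secreted or membrane-bound proteins that carry signals between cells, and most of them are made by leukocytes or by cells under stress. Interleukins of the IL6 and IL10 families signal through paired receptor chains and Janus kinases to STAT factors, chemokines signal through G protein-coupled receptors, and TNF family ligands bind trimeric receptors that lead to NF-kB or, where the receptor has a death domain, to caspases. Melanoma cells are known to express receptors of several of these families and to secrete chemokines such as CXCL8 and CCL2 in inflamed or dedifferentiated states.

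GRASLND itself had a normalized count of 309, 330 and 290 in shlacZ, 175 and 131 in sh4 and 227 and 163 in sh8, so that all knockdown libraries lay below the control. A normalized count is the number of reads divided by a size factor for the library. Depth was 13337317 to 22855232 reads per library. The first shlacZ library stood apart from the other control libraries, with a median absolute log2 difference over genes of 0.315 and 0.284 to them, against 0.159 between them and 0.246 from the first sh8 library. The labelled cell type was seen in its defining markers, since all 7 melanocyte lineage genes listed (MITF, MLANA, PMEL, TYR, TYRP1, DCT and SOX10) were expressed. Their summed normalized count was 135575 to 146343 in shlacZ, 51868 to 59737 in sh4 and 101544 to 104484 in sh8. Of 9 leukocyte markers 1 had values (ITGAM, at most 3.39 in any library) and of 5 fibroblast markers 1 (COL1A1, mean 10.1), whereas 0 of 3 keratinocyte and 0 of 3 endothelial markers did, and those without values were not analysed here. In bulk RNA a change in the share of cells that express a gene and a change in the RNA per cell cannot be told apart.

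Of the members in the table, most ligands were rare in these cells and most receptors were not. The 69 ligand and 29 receptor symbols not analysed here are outside the shares below. No gene of the table had fewer than 10 reads. A mean of 10 normalized counts over the 7 libraries was the minimum for testing, and 22 of 39 members (56.4%) reached it, against 72.4% of all genes in the table. Among ligands 5 of 15 (33.3%) reached the minimum, namely IL16, TNFSF13B, TNFSF9, CCL2 and CXCL8, and among receptors 17 of 24 (70.8%). By family, 2 of 7 chemokines, 1 of 5 interleukins, 9 of 12 interleukin receptors, 2 of 3 TNF family ligands and 8 of 12 TNF family receptors reached it. The median of the means was 8.61 for ligands, 59.3 for receptors and 107 for all genes. CXCL8 (mean 11.8) and CCL2 (13.3) lay just above the minimum, and TNFSF4 (9.04), IL10 (8.91), IL19 (8.61), CXCL3 (6.66), IL23R (6.55), CXCL2 (5.29) and IL9R (5.26) just below it. Thus a call could be made for most receptors in the table but for few of its ligands.

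**Figure D1:**
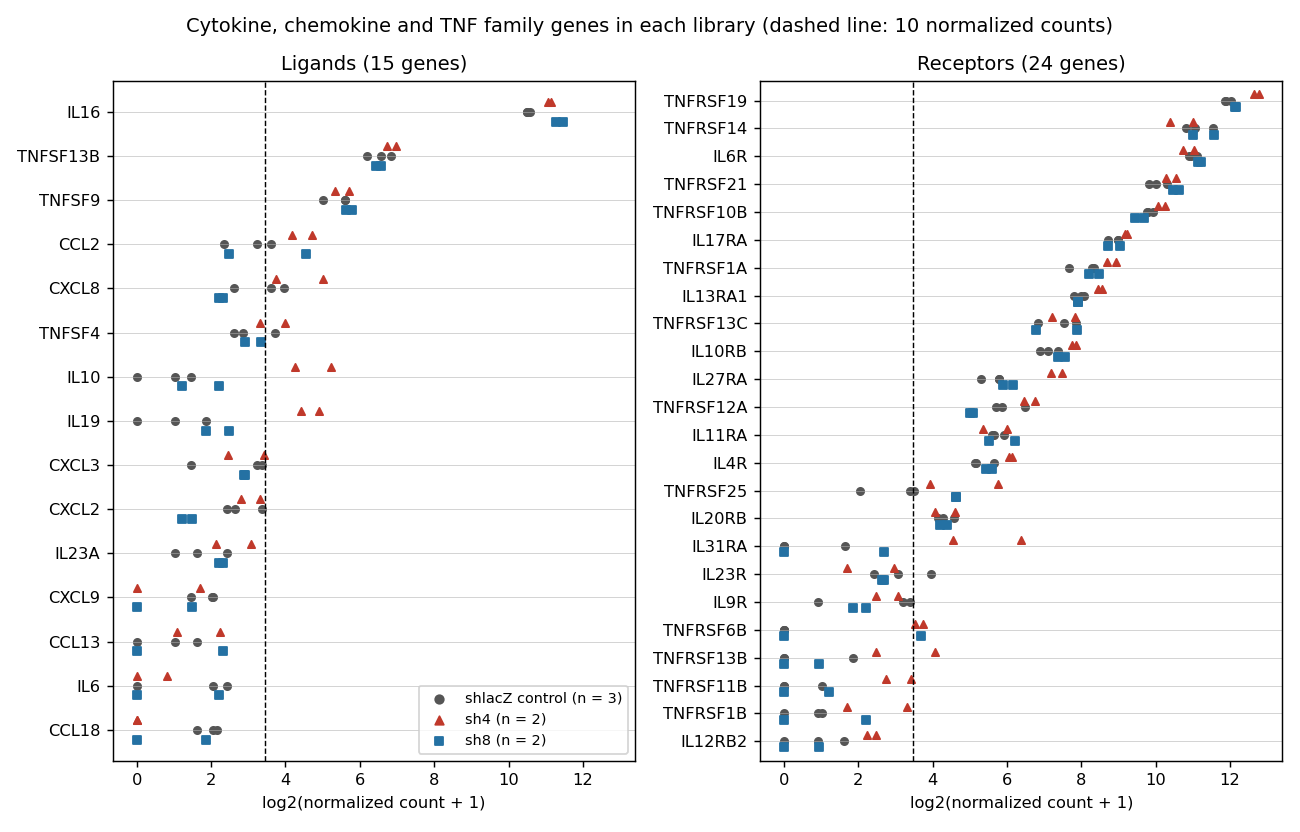
Normalized count of all 39 members on a log2(value + 1) axis, ligands at the left and receptors at the right, each ordered by its mean; each point is 1 library (circles shlacZ, triangles sh4, squares sh8) and the dashed line marks 10 normalized counts. 5 ligands and 17 receptors had a mean past that level, and IL16 (mean 2018) and TNFRSF19 (mean 4887) were the highest of their kind.

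Levels between genes were compared per kilobase of exon length. In the shlacZ libraries IL16, a precursor whose carboxy-terminal part is released as a ligand of CD4, led the ligands at 118 ± 3.68 normalized counts per kilobase (SD, n = 3). TNFSF13B (BAFF, a survival factor of B cells) at 30.6 ± 6.75 and TNFSF9 (4-1BB ligand, a costimulator of T cells) at 25.9 ± 5.74 followed, with overlapping spread. CXCL2 (4.50 ± 1.88) and CCL2 (4.10 ± 1.87) were next and did not differ beyond their spread. Among receptors TNFRSF19 (TROY, an orphan receptor of the TNF family known from neural and stem cells) was highest at 761 ± 42.1 per kilobase, ahead of TNFRSF14 (HVEM, the receptor of LIGHT and BTLA) at 371 ± 98.7, TNFRSF21 (death receptor 6) at 297 ± 49.3, IL6R (the IL6 binding chain) at 289 ± 22.6 and TNFRSF10B (a TRAIL death receptor) at 181 ± 10.9. TNFRSF14, TNFRSF21 and IL6R lay within their spread of each other.

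The summed normalized count of all ligands was 1655 ± 60.3 (SD, n = 3) in shlacZ, 2501 ± 110 (n = 2) in sh4 and 2842 ± 220.4 (n = 2) in sh8, which is 1.51 and 1.72 times the control. IL16 made up 88.6% of that sum in the control. Without IL16 the ligand sum was 188 ± 25.4, 291 ± 27.1 and 190 ± 0.925, or 1.55 times the control under sh4 and 1.01 times under sh8. The receptor sum was 11766 ± 159 in shlacZ, 15173 ± 2.11 in sh4 and 13306 ± 401 in sh8, 1.29 and 1.13 times the control. TNFRSF19 made up 33.1% of the receptor sum, and without it the ratios were 1.07 and 1.11. Leaving out the leading gene thus took away most of the difference for ligands under sh8 and for receptors under sh4, and little of it for receptors under sh8. The sums of the ligands other than IL16 under sh4 (272 and 310.5) lay above all control values (159 to 204). They hold IL10 (mean 0.929 in shlacZ and 27.3 in sh4), which was in the table only through sh4, as described below. The receptor sums likewise hold IL31RA (0.698 and 52.3). The sums under sh4 are thus partly set by which genes were in the table, and are a description.

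The first comparison asked which members change with both hairpins against GRASLND considered jointly. With limma and Benjamini-Hochberg adjustment over 15420 genes, 1 of 22 tested members passed an adjusted p of 0.05, where 4.61% of all genes did. The member was IL16, described below. None passed with an absolute log2 fold change over 1, where 1.99% of all genes did (0 members also by limma-voom). At an unadjusted p under 0.05 there were 7 of 22 members (31.8%), beside 24.1% of all genes. IL31RA and CXCL8 reached the minimum mean only through sh4, and without them there were 6 of 20 (30.0%). The median log2 fold change was 0.23 for the 22 members, 0.21 for the 5 ligands and 0.25 for the 17 receptors, beside -0.01 for all genes tested.

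For each hairpin against the control, counts are given over the 20 members that reached the minimum mean without relying on 1 hairpin. IL31RA and CXCL8 reached it only through the sh4 libraries (means 1.51 and 7.75 without them), so a count that holds them is partly set by the minimum. Under sh4, 6 of the 20 passed the adjusted p, all of them higher, namely the ligand IL16 and the receptors IL10RB, IL13RA1, IL27RA, TNFRSF19 and TNFRSF1A. Of all genes 22.5% passed under sh4, and 10.5% passed as higher, which is 46.9% of those that passed, or 59.3% when values were rescaled to library totals. With a log2 fold change over 1 in addition, 1 of the 20 was called (IL27RA), beside 8.16% of all genes. With IL31RA and CXCL8 the counts were 7 past and 2 called of 22. Under sh8, 1 member passed (IL16), beside 2.92% of all genes, and 0 were called, beside 1.15% (0 members also by limma-voom). At an unadjusted p under 0.05 there were 4 of 22 (18.2%) under sh8, beside 18.5% of all genes. Both hairpins were set against the same 3 control libraries, so these counts are not independent of each other.

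All sh4 libraries lay above all control libraries for 11 of these 20 members and below them for 0, where 25.1% of all genes lay above. For sh8 the count was 7 above and 2 below (TNFRSF10B and TNFRSF12A), where 16.5% of all genes lay above. The share of all genes below the control is not given for either hairpin, so nothing is read from the counts below. The median log2 fold change under sh4 was 0.46 for the 20 members. Over all 22 it was 0.56, with 0.59 for ligands and 0.55 for receptors, beside -0.01 for all genes. Under sh8 it was 0.19, 0.31 and 0.18, beside -0.01. The summed melanocyte markers were lower in the same libraries, at 51868 to 59737 in sh4 and 101544 to 104484 in sh8 beside 135575 or more in the control, and their part in these shifts was not tested.

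**Figure D2:**
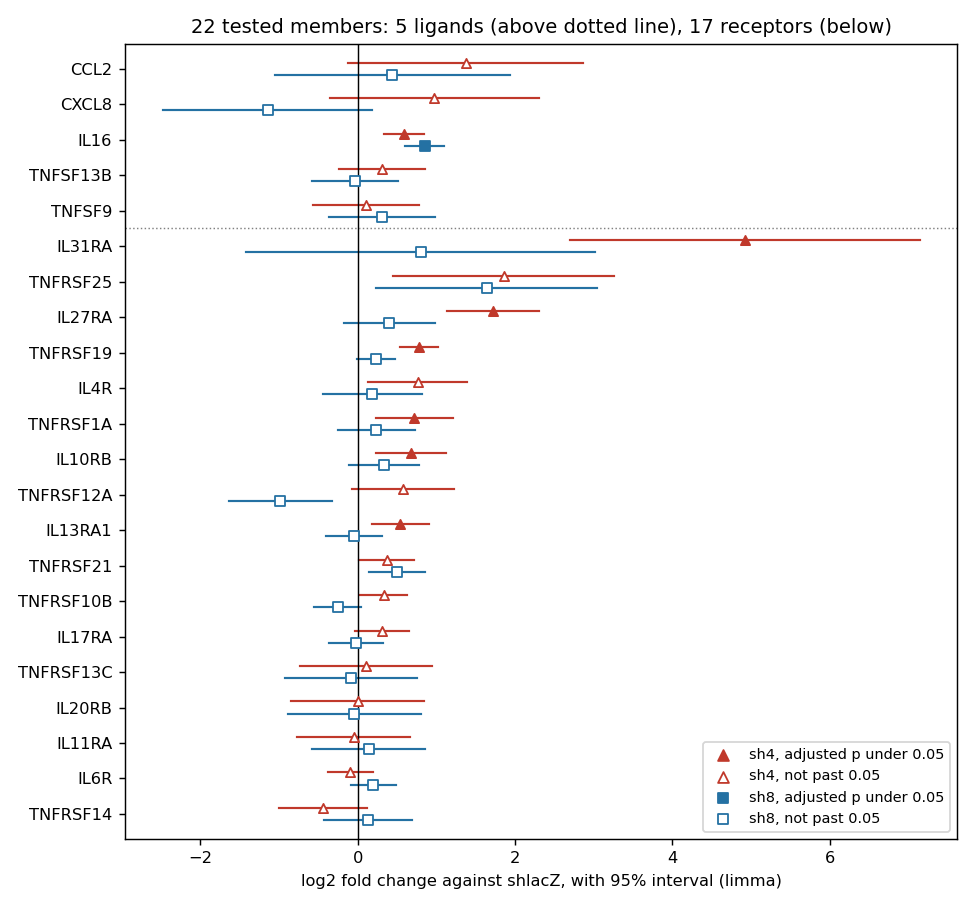
Log2 fold change against shlacZ with its 95% interval (limma) for the 22 tested members, sh4 as triangles and sh8 as squares, filled where the adjusted p was under 0.05; ligands stand above the dotted line. 7 members were past the threshold under sh4, all to the right of 0 and with IL31RA, which reached the minimum mean only through sh4, among them, and IL16 alone under sh8.

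Of the ligands, IL16 (ENSG00000172349, hg38 chromosome 15, 81159575 to 81314058, plus strand) had normalized counts of 1437, 1444 and 1520 in shlacZ, 2151 and 2269 in sh4 and 2808 and 2495 in sh8. The 3 groups did not overlap, and the sh8 libraries lay above the sh4 libraries. IL16 rose in limma by 0.72 on the log2 scale with both hairpins (SE 0.12, adjusted p 0.0168), by 0.59 under sh4 (SE 0.11, adjusted p 0.00508) and by 0.85 under sh8 (SE 0.11, adjusted p 0.00458). Between the hairpins IL16 differed by -0.26, sh4 minus sh8 (95% interval -0.53 to 0.01), which did not pass (adjusted p 0.247). The adjusted p of IL16 was 0.0908 and 0.0695 with both hairpins when the second or the third shlacZ library was left out, 0.0517 under sh4 without its second library, and 0.0694 under sh8 without its first. STARD5, on the opposite strand over 5006 bases of the IL16 locus, had 38.8 to 64.4 normalized counts in all libraries. CD4, the receptor of IL16, was not analysed here.

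The chemokines, which attract leukocytes, were near the limit of counting. CCL2, which attracts monocytes, was at 4.13, 8.38 and 11.3 normalized counts in shlacZ, 16.9 and 25.4 in sh4 and 22.4 and 4.55 in sh8. Both sh4 libraries lay above the control, whereas the sh8 libraries lay on either side of it, and neither comparison passed (sh4 log2 fold change 1.37, SE 0.67, adjusted p 0.170). CXCL8, which attracts neutrophils, was at 5.16, 14.7 and 11.3 in shlacZ, 12.4 and 31.3 in sh4 and 3.95 and 3.64 in sh8. The sh8 libraries, at 3 and 4 reads, lay below all others. For CXCL8 the value of sh4 minus sh8 of 2.12 (SE 0.65, adjusted p 0.0830) did not pass, and was past the threshold without the first shlacZ library (adjusted p 0.0377), but CXCL8 reached the minimum mean only through sh4, so neither value is a test of it. CXCL2, a further neutrophil chemokine, was also lowest in sh8, at 9.29, 5.24 and 4.35, then 9.03 and 5.97, then 1.32 and 1.82, whereas CXCL3 at 1.74 to 9.70 showed no order by group. CXCL9, CCL13 and CCL18 had at most 3.95 normalized counts in any library, and chemokine receptors, listed separately, had values for 4 of 23 genes with 0 reaching the minimum.

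IL10 and IL19 were the ligands that differed most under sh4. IL10 restrains activated myeloid cells, and IL19 is a relative of IL10 that binds the receptor with the chain IL20RB. IL10 (ENSG00000136634) was at 0, 1.05 and 1.74 normalized counts in shlacZ, 18.1 and 36.6 in sh4 and 1.32 and 3.64 in sh8. IL19 (ENSG00000142224) was at 1.03, 0 and 2.61 in shlacZ, 20.3 and 29.1 in sh4 and 2.64 and 4.55 in sh8. The sh4 libraries lay above all others for both genes. In reads, IL10 had 65 in sh4 against 3 in the control, a ratio of 29.9 after scaling, given as a description. IL19 had 57 against 4, a ratio of 19.7 (95% interval 7.28 to 74.7 for counting error only). In sh8 IL10 had 5 reads and IL19 had 7, with ratios of 2.76 (0.536 to 17.8) and 2.90 (0.736 to 13.5).

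Both genes had a mean under 10 and entered no count above. In a limma fit of all 21305 genes without the minimum, 4.07% of genes were called as higher under sh4. There IL19 rose by 3.71 under sh4 (SE 0.65, adjusted p 0.00346), and it did not pass without the second sh4 library. Between sh4 and sh8 the difference of IL19 was 2.50 (adjusted p 0.0768). IL10 was 3.91 higher under sh4 than in the control, and 3.03 higher than in sh8. The control held 3 reads of IL10 and sh8 5, together fewer than the 10 of the rarest gene in the table. IL10 was thus in the table only through sh4, so its values are a description and no test is given.

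These neighbours share a locus on chromosome 1 of hg38. IL10 lies on the minus strand from 206767602 to 206774541 and IL19 on the plus strand from 206770764 to 206842981, so that 3778 bases are annotated to both. The libraries were stranded, but the use of strand in counting was not given in the sources used here, and reads from the shared part cannot be assigned with certainty. In the RefSeq table (GRCh38.p14) IL10 has 3 start sites, of which 1 is divergent from the first IL19 start and 170 bases from it, and the others lie 416 and 1721 bases into IL19. The 169 bases between the divergent starts are shown because they stand before both genes. They lie in an intron of the canonical IL10 transcript, and the last 9 bases are exonic in a further IL19 transcript. Capitals mark a match to the AP-1 motif TGANTCA at bases 63 to 69. The 30 bases before the IL10 start farthest upstream, which lie in an exon of a non-canonical IL10 transcript, are given with capitals at TATAAA.
IL10-IL19 stretch, chr1:206770604-206770772, plus strand: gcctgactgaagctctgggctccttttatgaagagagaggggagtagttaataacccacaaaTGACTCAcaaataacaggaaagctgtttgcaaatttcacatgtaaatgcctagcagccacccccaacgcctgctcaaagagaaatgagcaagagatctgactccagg
IL10 start, chr1:206772495-206772524, minus strand: TATAAAagggggacagagaggtgaaggtct

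**Figure D3:**
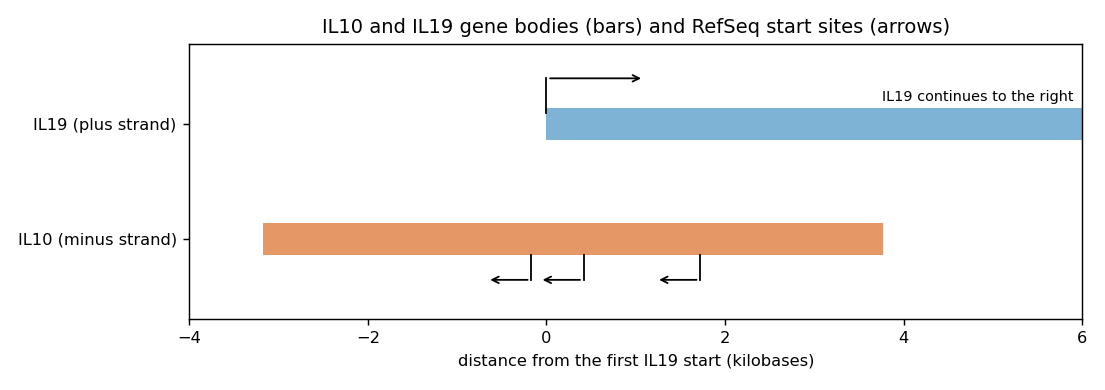
IL10 (lower bar, minus strand) and the first part of IL19 (upper bar, plus strand) along the distance in kilobases from the first IL19 start, with RefSeq start sites as arrows in the direction of transcription. One IL10 start lies 170 bases to the left of the IL19 start and points away from it, and the other IL10 starts lie inside IL19.

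The sequences around the starts of ligands and receptors were compared by motif. RefSeq promoter windows, of which the 250 bases before each start were searched on both strands, were found for 31 of 39 members, with 39 windows in all. TATAAA was in 7 of 19 ligand windows (36.8%) and in 0 of 20 receptor windows, beside 10.7% of all 35116 windows. The AP-1 motif was in 21.1% of ligand windows, 5.0% of receptor windows and 6.57% of all windows. The NF-kB motif was in 21.1%, 25.0% and 9.96%, and the STAT motif TTCNNNGAA in 10.5%, 0% and 6.57%. The median GC content was 47.2% in ligand windows, 64.8% in receptor windows and 58.0% in all windows. Windows of 1 gene overlap, and so do those of IL10 and IL19 at their divergent starts, which hold the same AP-1 match. The shares are thus a description, a match is not a binding site, and the motifs searched did not overlap in the stretches shown. As an example of a chemokine start, the stretch upstream of CXCL8 from 150 to 51 bases before its start is shown, outside any annotated exon, with the AP-1 match in capitals.
CXCL8, chr4:73740419-73740518, plus strand: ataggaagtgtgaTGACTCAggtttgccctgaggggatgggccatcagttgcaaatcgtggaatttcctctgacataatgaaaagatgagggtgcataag

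The other interleukin ligands were rarer. IL6, the ligand of IL6R, had 0, 3.14 and 4.35 normalized counts in shlacZ, 0 and 0.746 in sh4 and 0 and 3.64 in sh8. IL23A, a subunit of IL23, was between 1.05 and 7.46 in all libraries. No difference was detectable at this depth for these genes.

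TNF family ligands did not pass in any comparison. TNFSF13B was at 114, 72.3 and 94.8 normalized counts in shlacZ, 124 and 106 in sh4 and 85.7 and 93.7 in sh8 (sh4 log2 fold change 0.32, 95% interval -0.23 to 0.86, adjusted p 0.391). Of its receptors, TNFRSF13C, the BAFF receptor, was at 232, 185 and 112 in shlacZ, 225 and 149 in sh4 and 233 and 108 in sh8. Within each group the library numbered 1 had the highest value of TNFRSF13C, and the groups overlapped (sh4 0.11, 95% interval -0.73 to 0.95). TNFRSF13B (TACI), which binds BAFF and APRIL, was at 0, 0 and 2.61 in shlacZ, 4.52 and 15.7 in sh4 and 0 and 0.910 in sh8. TNFSF9 was at 47.5, 31.4 and 47.8, then 50.8 and 39.6, then 48.8 and 54.6, and its log2 fold changes of 0.11 under sh4 (95% interval -0.57 to 0.79) and 0.31 under sh8 (-0.37 to 0.98) did not pass. TNFSF4 (OX40 ligand) was between 5.16 and 14.9 in all libraries, with overlapping groups.

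Among receptors of the IL6 and IL12 type, IL27RA rose under sh4, and IL31RA had nearly all of its reads there. IL27RA (ENSG00000104998, hg38 chromosome 19, 14031762 to 14053218, plus strand) is the specific chain for IL27 and signals with IL6ST. Its normalized counts were 38.2, 54.5 and 53.9 in shlacZ, 146 and 179 in sh4 and 58.0 and 71.0 in sh8. The sh4 libraries were far above all others, and the sh8 libraries just above the control. IL27RA rose by 1.72 under sh4 (SE 0.26, 95% interval 1.14 to 2.30, adjusted p 0.00172), a result past the threshold in all 17 alternatives, whereas the value of 0.40 under sh8 did not pass (SE 0.26, adjusted p 0.453). The 140 bases before its start are shown for this reason, with 2 matches to the NF-kB motif in capitals. No annotated exon covers them.
IL27RA, chr19:14031622-14031761, plus strand: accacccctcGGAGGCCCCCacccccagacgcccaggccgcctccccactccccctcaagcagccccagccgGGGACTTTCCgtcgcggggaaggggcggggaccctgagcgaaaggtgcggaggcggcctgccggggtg

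IL31RA (ENSG00000164509, chromosome 5, 55851357 to 55922854, plus strand) is the specific chain for the itch cytokine IL31, which signals with OSMR. It was at 0, 2.09 and 0 normalized counts in shlacZ, 22.6 and 82.1 in sh4 and 0 and 5.46 in sh8. The sh4 libraries held 20 and 110 reads, the control 2 in all and sh8 6. Both sh4 libraries lay above all others, and since the gene reached the minimum mean only through them, its values are a description and no test is given. The read ratio of sh4 to control was 89.8 after scaling, also as a description. OSMR was not analysed here.

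**Figure D4:**
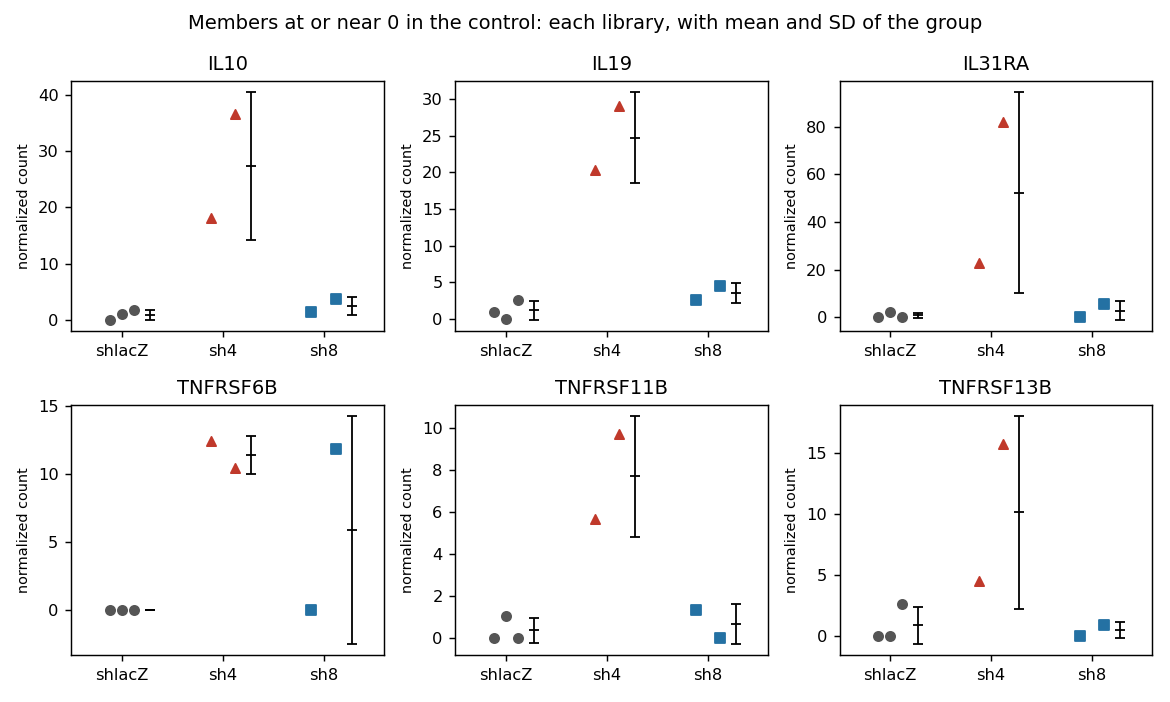
Normalized counts of 6 members at or near 0 in the control, each point 1 library, with the mean and SD of the group as a bar at its right. IL10, IL19, IL31RA, TNFRSF11B and TNFRSF13B were highest in the sh4 libraries, whereas TNFRSF6B was at 10.4 to 12.4 in both sh4 libraries and 1 of 2 sh8 libraries and at 0 elsewhere.

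The partner chain IL6ST, which IL6, IL11 and IL27 receptors share, was at 1705, 1924 and 2003 normalized counts in shlacZ, 2740 and 3782 in sh4 and 2639 and 2722 in sh8. All knockdown libraries lay above the control, and IL6ST rose by 0.65 with both hairpins (adjusted p 0.0384) and by 0.78 under sh4 (adjusted p 0.00514), with 0.52 under sh8 (adjusted p 0.0963). The value for both hairpins was lost without any 1 of 6 libraries, all but the first of sh8 (adjusted p up to 0.151), and the value for sh4 without its second library (adjusted p 0.0576). IL6R was at 1897, 1966 and 2198 in shlacZ, 2084 and 1718 in sh4 and 2257 and 2384 in sh8. Its groups differed by little, and the 95% interval was -0.38 to 0.19 under sh4 and -0.08 to 0.49 under sh8. IL11RA lay between 39.6 and 72.8 in all libraries, with a readthrough gene (ENSG00000258728) that shares its exons at 15.7 to 58.8. IL12RB2 was at 3.73 and 4.52 in sh4 and at most 2.06 elsewhere. With 3 reads in the control and 1 in sh8, IL12RB2 was in the table only through sh4, so its values are a description. IL23R was between 2.24 and 14.4.

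The class II receptor chain IL10RB, which receptors for IL10, IL22 and type III interferons share, was at 165, 118 and 137 normalized counts in shlacZ, 215 and 233 in sh4 and 163 and 188 in sh8. The sh4 libraries lay above all others. IL10RB rose by 0.68 under sh4 (SE 0.20, adjusted p 0.0349). The annotated readthrough IFNAR2-IL10RB, which shares exons with IL10RB, was at 38.2, 39.8 and 49.6 in shlacZ, 66.6 and 94.0 in sh4 and 5.27 and 63.7 in sh8, and a split of reads between both is uncertain. IL20RB, a chain of the IL19 receptor, was at 22.7, 16.8 and 18.3, then 15.8 and 23.1, then 19.8 and 17.3, with no order by group (sh4 0.00, 95% interval -0.84 to 0.85). Leaving out any library other than the first shlacZ library gave an adjusted p of 0.050 to 0.183 for IL10RB under sh4.

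The type II receptor for IL4 and IL13 joins IL13RA1 with IL4R. IL13RA1 was at 221, 253 and 271 normalized counts in shlacZ, 347 and 377 in sh4 and 239.9 and 240.3 in sh8, and rose by 0.55 under sh4 (SE 0.16, adjusted p 0.0354). IL4R was at 35.1, 34.6 and 49.6 in shlacZ, 68.9 and 65.7 in sh4 and 42.2 and 47.3 in sh8. For both, the sh4 libraries lay above all others and the sh8 libraries overlapped the control, but the value of IL4R of 0.76 under sh4 did not pass (SE 0.28, adjusted p 0.0782). Without any library other than the first shlacZ library, the adjusted p of IL13RA1 was 0.0546 to 0.189. IL17RA, the common chain for IL17, was at 420.1, 504 and 507, then 601 and 579, then 420.5 and 522, with a value of 0.31 under sh4 (adjusted p 0.181). IL9R was at 0.870 to 9.43 in all libraries.

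Of the TNF family receptors, TNFRSF19 (ENSG00000127863, hg38 chromosome 13, 23570370 to 23676104, plus strand) had normalized counts of 3772, 4139 and 3762 in shlacZ, 6432 and 6994 in sh4 and 4612 and 4498 in sh8. All 3 groups were apart, with sh4 the highest. TNFRSF19 rose by 0.79 under sh4 (SE 0.11, 95% interval 0.54 to 1.03, adjusted p 0.00105), past the threshold in all 17 alternatives, with 0.23 under sh8 (SE 0.11, adjusted p 0.299). RefSeq gives it 2 start windows, and the 180 bases before the downstream start are shown with the NF-kB match in capitals. They lie in an intron of the canonical transcript.
TNFRSF19, chr13:23579180-23579359, plus strand: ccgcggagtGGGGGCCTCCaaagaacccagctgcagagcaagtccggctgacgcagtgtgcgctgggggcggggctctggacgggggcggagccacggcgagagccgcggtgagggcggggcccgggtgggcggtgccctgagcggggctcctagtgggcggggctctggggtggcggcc

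Receptors with a death domain did not move as 1 group. TNFRSF1A, the main TNF receptor, was at 202, 314 and 321 normalized counts in shlacZ, 416 and 491 in sh4 and 295 and 352 in sh8. It rose by 0.72 under sh4 (SE 0.22, adjusted p 0.0397), with an adjusted p of 0.0504 to 0.224 when any sh4 or sh8 library or the second shlacZ library was left out. TNFRSF10B was at 879, 869 and 968 in shlacZ, 1059 and 1227 in sh4 and 701 and 823 in sh8, so that the sh4 libraries lay above the control and the sh8 libraries below it, with neither past the threshold (sh4 0.33, adjusted p 0.102, and sh8 -0.25, adjusted p 0.356). TNFRSF21 was at 907, 1038 and 1258, then 1248 and 1498, then 1426 and 1576, and its value of 0.44 with both hairpins did not pass (adjusted p 0.103).

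TNFRSF25 (death receptor 3, the receptor of TL1A) was at 10.3, 3.14 and 9.57 normalized counts in shlacZ, 53.1 and 14.2 in sh4 and 23.7 and 23.7 in sh8. All 4 knockdown libraries lay above the control. The value of 1.75 with both hairpins (SE 0.52, adjusted p 0.0834) and of 1.86 under sh4 (SE 0.63, adjusted p 0.0598) did not pass. Under sh4 it was past the threshold without the second sh4 library (2.77, adjusted p 0.0430) or without the first shlacZ library (2.11, adjusted p 0.0323). ESPN, which overlaps TNFRSF25 on the opposite strand, was at 27.9, 16.8 and 13.0, then 61.0 and 20.2, then 21.1 and 14.6.

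TNFRSF12A (Fn14, the receptor of TWEAK, which has no death domain) was at 51.6, 57.6 and 87.9 normalized counts in shlacZ, 87.0 and 106 in sh4 and 33.0 and 30.9 in sh8. The sh8 libraries lay below all others, and the sh4 libraries overlapped the control. Its value of -0.98 under sh8 did not pass (SE 0.29, adjusted p 0.108), and it was past the threshold without the first shlacZ library (-1.13, adjusted p 0.0370). TNFRSF14 was at 2990, 2134 and 1802 in shlacZ, 2050 and 1341 in sh4 and 3011 and 2036 in sh8. In each group the library numbered 1 had the highest value of TNFRSF14, and the groups overlapped (sh4 -0.44, 95% interval -1.004 to 0.115).

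Decoy receptors of the family, which bind ligands without a signal, were close to 0 in the control. TNFRSF6B (decoy receptor 3), which binds FAS ligand, LIGHT and TL1A, was at 0 in all shlacZ libraries, 12.4 and 10.4 in sh4 and 0 and 11.8 in sh8. With 25 reads in sh4 against 0, it was at least 3.84-fold higher, taking 3 reads per library as the limit that 0 reads allow. In sh8 all 13 reads were in the second library and 0 in the first, so the bound of 2.39-fold rests on 1 library. The readthrough RTEL1-TNFRSF6B, which holds its exons, was at 266, 223 and 168 in shlacZ, 322 and 154 in sh4 and 347 and 118 in sh8, and how reads were split between both is uncertain. TNFRSF11B (osteoprotegerin), the decoy of RANK ligand, was at 0, 1.05 and 0, then 5.65 and 9.70, then 1.32 and 0. It had 18 reads in sh4 against 1 in the control, a ratio of 24.9, given as a description.

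In the fit without the minimum, TNFRSF6B rose by 3.63 under sh4 (adjusted p 0.0228). It did not pass without either sh4 library, or without the second (adjusted p 0.0609) or the third shlacZ library. TNFRSF11B was 2.73 higher and TNFRSF13B 2.64 higher under sh4. TNFRSF1B, the second TNF receptor, was at 1.03, 0 and 0.870, then 2.26 and 8.96, then 0 and 3.64. In the control and sh8, TNFRSF11B had 1 and 1 reads, TNFRSF13B 3 and 1, and TNFRSF1B 2 and 4. Each total was under the 10 reads of the rarest gene in the table. TNFRSF11B, TNFRSF13B and TNFRSF1B were thus in the table only through sh4, so their values are a description and no test is given.

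The hairpins were also compared directly. Between sh4 and sh8, 4 of 22 members passed the adjusted p, all receptors and all higher in sh4, beside 7.0% of all genes (52.5% of them higher in sh4, or 67.0% with library totals), and 2 were called (IL27RA and TNFRSF12A), beside 3.19%. The difference, sh4 minus sh8, was 1.32 for IL27RA (SE 0.29, adjusted p 0.0234), 1.56 for TNFRSF12A (SE 0.32, adjusted p 0.0189), 0.56 for TNFRSF19 (SE 0.12, adjusted p 0.0215) and 0.59 for TNFRSF10B (SE 0.15, adjusted p 0.0424). The sh4 libraries lay above the sh8 libraries for each of these genes. Leaving out any sh4 or sh8 library left none of the 4 past the threshold, with an adjusted p of 0.0738 to 0.203 for IL27RA, 0.0750 to 0.176 for TNFRSF12A, 0.0656 to 0.167 for TNFRSF19 and 0.0847 to 0.262 for TNFRSF10B. TNFRSF10B also needed the second and the third shlacZ library (adjusted p 0.0630 and 0.0698 without them).

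**Figure D5:**
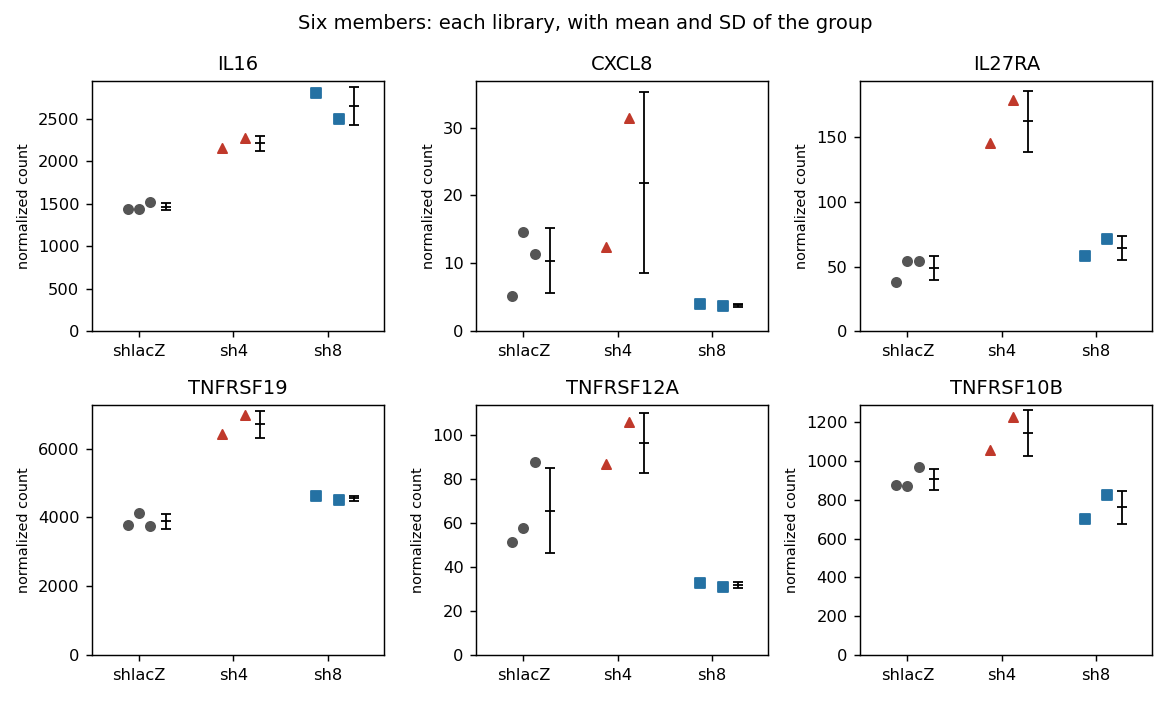
Normalized counts of 6 members, each point 1 library, with the mean and SD of the group as a bar at its right and axes that start at 0. IL16 was higher with both hairpins, IL27RA and TNFRSF19 were highest in sh4, and CXCL8, TNFRSF12A and TNFRSF10B were lowest in sh8.

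A list of 90 further genes of the same pathways held family members under other names, shared receptor chains, chemokine receptors and adaptors. Of these 40 had values and 25 were tested. Under sh4, 8 passed the adjusted p as higher and 3 as lower, beside 10.5% and 11.9% of all genes, and 1 was called, beside 8.16%. It was IL17RD, known as an inhibitor of FGF and IL17 signalling, at 335, 233 and 339 normalized counts in shlacZ, 911 and 1319 in sh4 and 428 and 512 in sh8. All knockdown libraries lay above the control, and IL17RD rose by 1.88 under sh4 (adjusted p 0.000436) and differed by 1.22 between sh4 and sh8 (adjusted p 0.0146). The rise under sh4 stayed past the threshold without any 1 library, whereas the difference between the hairpins was lost without the second sh4 library (adjusted p 0.154) or either sh8 library (adjusted p 0.119 and 0.0533). With both hairpins 1 passed as higher (IL6ST) and 1 as lower (TRAF3IP2), beside 4.61% of all genes in either direction. Under sh8 0 and 1 did (TRAF3IP2), beside 2.92%, and between sh4 and sh8 1 in each direction (IL17RD and TRAF3), beside 7.0%.

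Of 15 adaptors tested, 6 rose and 3 fell under sh4, where 10.5% of all genes passed as higher and 11.9% as lower. TNFAIP3 (A20, a brake on NF-kB) rose by 0.82 (adjusted p 0.00771), CFLAR (an inhibitor of CASP8) by 0.70 (adjusted p 0.00876) and CASP8 itself by 0.66 (adjusted p 0.0156), and RIPK1, TRAF6 and IRAK4 rose as well. TRAF3 fell by 0.82 (adjusted p 0.00416), TRAF2 fell by 0.86 (adjusted p 0.00847) and TRAF3IP2, the adaptor of the IL17 receptor, fell by 0.80 (adjusted p 0.00331). TRAF3IP2 was at 890, 885 and 933 normalized counts in shlacZ, 579 and 461 in sh4 and 543 and 580 in sh8, so that all knockdown libraries lay below the control. Of the 11 pathway genes past the threshold under sh4, IL17RD and TRAF3IP2 stayed past it without any 1 library and 9 did not. All 9 were lost without the second sh4 library (adjusted p 0.0522 for CFLAR to 0.140 for IRAK4), and some also without the first sh4 library or without shlacZ replicate 2 or 3. The fall of TRAF3IP2 with both hairpins was lost when either shlacZ replicate 2 or replicate 3 was left out (adjusted p 0.0901 and 0.0870), and its fall under sh8 also without either sh8 library (adjusted p 0.188 and 0.170). The difference of TRAF3 between the hairpins was lost without the second sh4 library (adjusted p 0.117) or the first of sh8 (adjusted p 0.107). Of the TNF receptors under other names (LTBR, CD40, FAS and RELT tested), 0 of 4 passed in any comparison.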

How the data were processed

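RNA-seq was measured in 7 libraries of 501Mel cells, in 3 groups given by the labels. According to the study's methods, ribosomal RNA was depleted, stranded read pairs went through Cutadapt for adapters, STAR for alignment to hg38 and Salmon for gene quantities, and DESeq2 scaled the matrix (versions not given in the sources used here). The authors deposited 1 table of normalized counts, which are counts divided by a size factor per library. In each library 100% of values equalled a whole number of reads (within 0.01 of a read) times 1 constant, and reads were recovered from this for depth, read ratios and limma-voom. No gene of the table had fewer than 10 reads over all libraries, so rarer genes were not analysed here. 0 columns belonged to other samples.

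Tests used limma 3.58.1 (R 4.3.3) with a variance trend, two-sided, on log2(normalized count + 1), for 15420 genes with a mean of at least 10. This scale understates the change of low genes. Members past the threshold had a Benjamini-Hochberg adjusted p under 0.05 over all genes tested, and called members also an absolute log2 fold change over 1. Both hairpins together were compared with the control in a fit with 2 levels, and each hairpin, and sh4 with sh8, in a 3-group fit with a common variance. The script was tested on simulated data. The count test that the unit would otherwise allow was not run, because the decimals are written with commas.

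GENCODE release 44 (hg38) held 21281 (99.9%) of the identifiers and gave coordinates and exon length. Promoter sequences came from RefSeq (GRCh38.p14). Genes named were those past the adjusted p in any comparison, the 5 ligands and 5 receptors with the highest level per kilobase, those with a mean of 5 to 15, their textbook partners and called genes of the pathway list, and the other members were added for completeness after their values were seen. Members and lists were chosen with earlier results of these data known. Alternatives covered the pseudocount (0.5 and 10), the minimum mean, the scaling, the variance trend, limma-voom, a replicate block, which libraries entered the fit, and omission of each library in turn. The same replicate number in different groups was not taken as a pairing, since the labels state none and the correlation of deviations from the group means was -0.078 to 0.337 over 6 pairs. Counts without the members that reached the minimum mean only through 1 hairpin were added after the data were seen. Where a read ratio carries a 95% interval, it is exact and covers counting error only.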

Additional observations from a re-analysis of the deposited data

Results flagged for a closer look

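4 receptors differed between the hairpins by a test of the difference itself (limma, Benjamini-Hochberg adjusted), with 2 libraries per hairpin. The limits given above for leaving out a library hold for all 4. TNFRSF10B was also not past the threshold with no minimum mean or without the variance trend, nor was TNFRSF19 without the variance trend. The log2 difference, sh4 minus sh8, was 1.32 for IL27RA (adjusted p 0.0234), 1.56 for TNFRSF12A (adjusted p 0.0189), 0.56 for TNFRSF19 (adjusted p 0.0215) and 0.59 for TNFRSF10B (adjusted p 0.0424), with both sh4 libraries above both sh8 libraries for each. IL27RA and TNFRSF19 were nearer to the control in sh8, whereas for TNFRSF12A and TNFRSF10B the sh8 libraries lay below the control and those of sh4 overlapped or exceeded it. GRASLND itself differed by -0.34 between the hairpins (adjusted p 0.421), and the summed melanocyte markers were 51868 to 59737 in sh4 against 101544 to 104484 in sh8. The part of either in these differences was not tested. Among the 4 knockdown libraries, 22 tested members were searched for a library far from the others, and 0 were found, where chance gives about 1 in 20. The search took both hairpins as 1 set. A difference between them widens the range and can hide a far library, so nothing is concluded from the 0.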

How the results depend on the processing

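Of 22 tested members, among them IL31RA and CXCL8, which reached the minimum mean only through sh4, 0 were called with both hairpins, 2 with sh4, 0 with sh8 and 2 when the hairpins were compared. Without those 2 members, 1 was called and 6 were past under sh4, and the counts past or called in the other comparisons were the same. Averaging the hairpins within the 3-group fit gave 3 called and 6 past the adjusted p, against 0 and 1. With no minimum mean, 6 members were called under sh4, all higher, beside 4.07% of all genes called as higher, and 11 were past. In that fit 4 were called between sh4 and sh8. Of the pathway list, 1 gene was called with both hairpins and 4 under sh4. These counts hold IL10, IL31RA and TNFRSF11B, and CCR7 and CASP10 of the list. Each had fewer than 10 reads outside sh4 and was in the table only through sh4, so these counts are no test. For the other counts of that fit, for the averaged hairpins and for the settings that follow, the share of all genes is not given. Nothing particular to the members is read from these counts. With a minimum mean of 50, 1 member was called under sh4, because IL31RA was then not tested. Without the variance trend, 0 members were past with both hairpins, 0 under sh8 and 2 between sh4 and sh8, and 0 of the pathway list were called between sh4 and sh8. With only the compared libraries in the fit, 4 members were past under sh4. That average also gave 1 called gene of the pathway list. A minimum mean of 1 was reached by all 39 members and a minimum of 5, 20 and 50 by 29, 17 and 15.

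Leaving out 1 library at a time gave 0 to 1 called and 0 to 2 past members with both hairpins, 2 to 3 called and 3 to 8 past under sh4, 0 to 1 called and 0 to 2 past under sh8, and 0 to 4 called and 0 to 7 past between sh4 and sh8. The highest counts under sh4, under sh8 and between the hairpins came without the first shlacZ library, and the 0 between sh4 and sh8 without any sh4 or sh8 library. The 1 member called with both hairpins, without the first sh8 library, was IL31RA. IL31RA reached the minimum mean only through sh4, so this call is no test of it. IL31RA was also in most of these counts under sh4, and with CXCL8 in the highest between the hairpins. CXCL8 too reached the minimum only through sh4, so the counts that hold either are no test. The share of all genes in these fits is not given. For the pathway list the range was 0 to 1 with both hairpins, 1 to 2 under sh4, and 0 to 2 between sh4 and sh8. The median of receptors minus that of ligands ranged from -0.20 to 0.21 under sh8, with the positive value without its first library. TNFRSF6B, below the minimum mean, differed by 1.79 between sh4 and sh8 (adjusted p 0.390), and this ranged from -0.0497 without the first sh8 library to 3.63 without the second. Alternatives for low members were added after the data were seen.

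With a replicate block, 0 members were past with both hairpins and 2 under sh8. Same-numbered libraries were not treated as pairs, since the labels state no pairing. Deviations from the group means correlated over 0.1 in 3 of 6 pairs (0.117, 0.213 and 0.337) and at -0.078 to 0.034 in the others. These correlations do not decide whether replicates were paired. Single calls differed under the block. IL10RB (adjusted p 0.0646) and RIPK1 (0.0532) under sh4 and TRAF3IP2 (0.0521) under sh8 were not past the threshold. With both hairpins, IL16, IL6ST and TRAF3IP2 (0.114, 0.134 and 0.126) were not past it either. Past it under the block were TNFRSF14 (0.0073), TNFRSF21 (0.0253) and TNFRSF25 (0.024) under sh4. So were TNFRSF21 (0.0313) and IL1RAP (0.0424) under sh8, and TNFRSF14 (0.0181) between sh4 and sh8. IL31RA reached the minimum mean only through sh4 and is left out here. The block changed no other count by more than 1.5 times. Of single members, IL27RA and TNFRSF19 under sh4 were past the threshold in 17 of 17 alternatives, IL16 in 16 of 17 under sh4, 15 of 17 under sh8 and 13 of 17 with both hairpins, and IL10RB, IL13RA1 and TNFRSF1A in 9, 10 and 10 of 17. Rescaling to library totals moved the median of all genes under sh4 from -0.008 to 0.090 and that of the members from 0.562 to 0.660. Where no cause is named, the cause was not tested. Depth limits the ligands most, since 10 of 15 had a mean under 10.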
